A study of Homo sapiens with 12 samples.

Results

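The small ubiquitin-like modifier (SUMO) genes examined here are the paralogs SUMO2 and SUMO3 and 6 genes of the machinery that attaches or removes SUMO: SAE1, UBA2, PIAS1, SENP1, SENP3 and SENP6. They were taken as every probe that carries one of these 8 gene symbols on the array, which gave 18 probes of 41000 (8 of 30238 gene names). All levels come from Rh30, an established human alveolar rhabdomyosarcoma (ARMS) cell line that carries the PAX3-FKHR fusion gene. Total RNA of 3 cultures was hybridized in pairs to 12 two-colour oligonucleotide arrays, with 3 comparisons, 2 biological replicates of each and both dye orientations of each replicate. WT was the untransfected parental line, grown without puromycin. CON was a single stable clone that carried a retroviral vector with a non-targeting short hairpin RNA, and KD1 was a single stable clone that carried the same kind of vector with a hairpin against PAX3-FKHR. Both clones were grown in 1 μg/ml puromycin, every culture was grown for 24 hours before extraction, and 500 ng of RNA was labelled. Because each clone is a single isolate, an effect of the hairpin and a property of that isolate cannot be told apart in these arrays.

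SUMO proteins are joined to lysines of other proteins much as ubiquitin is, and this changes the binding partners, location or activity of the target. A heterodimer of SAE1 and UBA2 activates SUMO, ligases such as the PIAS proteins help its transfer to targets, and SENP proteases mature the SUMO precursors and take SUMO off again. SUMO2 and SUMO3 are nearly identical as mature proteins and can form chains. Many SUMO targets are transcription factors and chromatin proteins in the nucleus.

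SUMO3 was detected in both control cultures and was lower in KD1, while SUMO2 lay at about the same level in all 3 cultures. In KD1, SUMO3 was well above the array background with only 1 of its 2 probes and in only 1 of the 2 replicates. The 2 SUMO3 probes gave log2 ratios of KD1 to CON of −6.01 ± 2.34 and −5.46 ± 0.13 (SD, n = 2), and the 6 SUMO2 probes gave means between −0.21 and −0.08. SUMO3 was also lower in WT than in CON, by 1.85-fold and 2.07-fold on the 2 probes. The probes of the other 6 genes and of SUMO2 had mean ratios within 1.30-fold of CON in KD1, and in the other comparisons 1 of them, on SENP3, was past 2-fold, in KD1 against WT. These ratios were among those known when the 8 genes were chosen, and SUMO3 is on the study's own list of genes lower in KD1, which was selected on these arrays. The values are therefore given as a description, with no test, and the study's list is not independent evidence of their direction.

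Each probe is a 60-base oligonucleotide, and the array design places them on the NCBI36 assembly. The brighter SUMO3 probe (A_23_P102937) lies at chr21:45050368-45050427 and the dimmer one (A_24_P245767) at chr21:45051038-45051097, both on the minus strand and both assigned to the transcript NM_006936. The transcript models of that build were not used here, so the exon of each probe is not given. The SUMO2 probes lie on the minus strand of chromosome 17 between 70675484 and 70676048 and are assigned to NM_006937. In 2 pairs of SUMO2 probes the positions overlap, by 40 and by 34 bases, so the 6 probes are not 6 independent readings of the gene. A stretch of 30 bases of each SUMO3 probe is shown with the SUMO2 probe that shares the longest run with it, since the comparison of the paralogs rests on these oligonucleotides telling them apart. Capitals mark the shared run, which is 7 bases for the first pair and 6 bases for the second.
SUMO3 A_23_P102937: taagtattgctgAATTTGCagttatgttgt
SUMO2 A_32_P144960: aactgcAATTTGCttccaccacatcctgac
SUMO3 A_24_P245767: ttgcaagatattgtgggtACTTTTgtgtgc
SUMO2 A_32_P149536: attttataACTTTTtcgtacatagctgcta
The longest run that a SUMO3 probe shares with a probe of any other gene on the array is 12 bases for A_23_P102937 and 13 bases for A_24_P245767.

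A few facts of the whole series bear on these values. No gene spot was saturated on any array, and between 95 and 188 spots per array carried the scanner software's outlier flags and were left out. The brightest probe of PAX3 had a log2 ratio of −0.42 ± 0.04 for KD1 against CON and −0.39 ± 0.08 against WT, and that of FOXO1, the FKHR gene, had −0.42 ± 0.23 and −0.60 ± 0.26 (SD, n = 2), and neither passed the test across all probes (limma, adjusted p between 0.30 and 0.42). Where these probes lie relative to the fusion point is not given in the sources used here, so they need not report the fusion transcript alone. The study measured the fusion itself, by RT-PCR and Western blot, and reports its mRNA and protein as lower in KD1 than in CON. All 3 myogenic markers, MYOD1, MYOG and DES, were well above background on every array. MYOG differed between the cultures, with log2 ratios of −1.81 ± 0.45 for WT against CON (limma, adjusted p = 0.048), −1.15 ± 0.25 for KD1 against CON (adjusted p = 0.085) and 0.61 ± 0.18 for KD1 against WT (adjusted p = 0.241), and its part in the SUMO3 difference between WT and CON was not tested. Of the 3 markers of other cell types, PTPRC did not exceed background on any of the 12 arrays, PECAM1 did on all, and EPCAM did only on the 4 arrays that held the second WT extract. The normalized signal of EPCAM was 164 in that extract and between 3.41 and 3.93 in the other 5. The summed signal of these 3 markers ran from 634 to 940 in WT, from 1021 to 1037 in CON and from 685 to 1055 in KD1.

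Signal here means the processed brightness of a probe in 1 dye channel, and a log2 ratio of −1 means that KD1, or the culture named first, had a signal 2-fold lower than the other. A probe is called well above background by the scanner software where its signal exceeds that of the background by a set margin. The brighter SUMO3 probe met this on all 8 CON channels and all 8 WT channels, but for KD1 on 0 of the 4 arrays of the first replicate and on 4 of the 4 arrays of the second. The dimmer SUMO3 probe met it on all 8 CON and all 8 WT channels and on none of the 8 KD1 channels. SUMO3 was thus measured in both controls on every array, and in KD1 only in 1 extract with 1 probe.

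On the single arrays, the brighter SUMO3 probe had log2 ratios of KD1 to CON of −6.80 and −8.53 in replicate 1 and of −4.28 and −4.43 in replicate 2, with the forward and then the swapped dyes. Against WT it had −4.16 and −6.39 in replicate 1 and −3.26 and −3.48 in replicate 2. All 8 ratios were below −3. The dye-swap means were −7.67 and −4.36 against CON and −5.28 and −3.37 against WT, so replicate 1 was the lower one in both comparisons, and it was also the one whose dye orientations differed most. The dimmer probe had −5.91, −5.19, −4.57 and −6.18 against CON, and −3.99, −5.17, −3.46 and −3.95 against WT, in the same order of arrays. Its dye-swap means were −5.55 and −5.37 against CON and −4.58 and −3.70 against WT. By the array identifiers in the labels, both KD1 comparisons of a replicate were run on 1 slide, so replicate and slide cannot be told apart in the spread of the brighter probe.

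**Figure D1:**
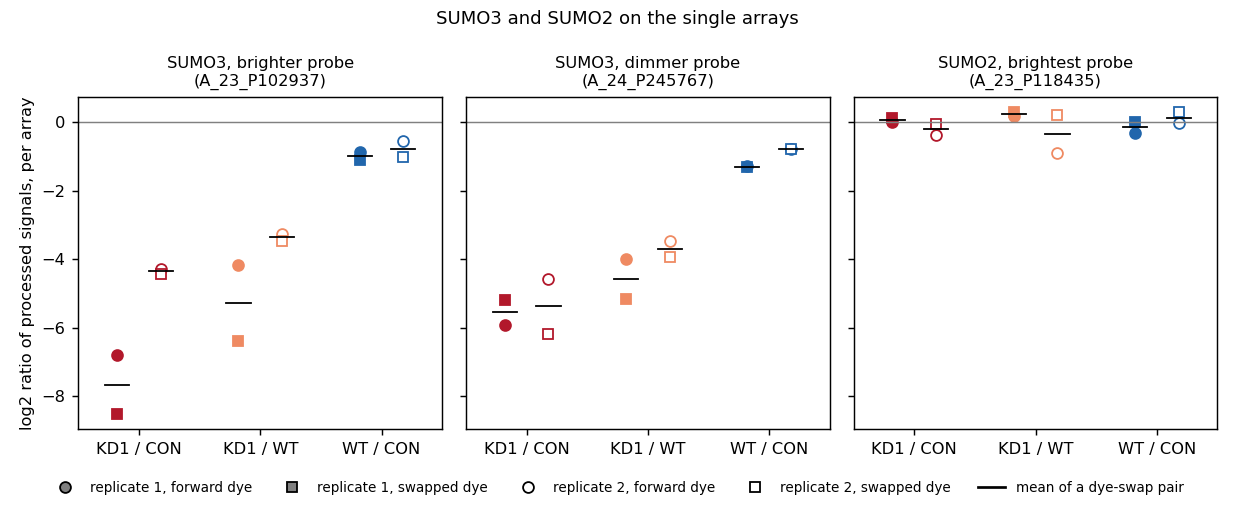
Log2 ratio of processed signals on each of the 12 arrays (vertical axis) for both SUMO3 probes and the brightest SUMO2 probe, by comparison. Filled symbols are replicate 1 and open symbols replicate 2, circles and squares are the 2 dye orientations, and a bar marks the mean of a dye-swap pair; every SUMO3 symbol is below 0, with KD1 ratios from −8.53 to −3.26, and the SUMO2 symbols lie around 0.

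Where KD1 was not well above background, the fold is the control's mean normalized level over a floor. The floor is the higher of the probe's own level and the lowest level called well above background on each array. It takes the lowest such level of any probe, so background can lie above it, and these folds are not strict lower bounds. For the dimmer probe this floor was 21.2-fold lower than the level of CON and 10.6-fold lower than that of WT. For the brighter probe in replicate 1 the floor was 92.7-fold lower than CON and 44.0-fold lower than WT. That floor was a normalized log2 level of 3.59, and the negative controls set no part of it. On the replicate 1 arrays of KD1 against CON, the 99th percentile of their background-subtracted signal lay between 15.9 and 40.6. On those of KD1 against WT it lay between 7.88 and 20.4. These signals were not scaled between arrays as the floor was. In replicate 2, where the brighter probe was measured in all cultures, KD1 was 20.5-fold below CON and 10.3-fold below WT. With normexp background correction (offset 50) and loess in place of the authors' processing, the mean log2 ratios of the brighter probe shrank to −2.19 against CON and −1.62 against WT, and those of the dimmer probe to −0.998 and −0.70. The folds against the floor use each channel's own normalized level, after quantile scaling of the average signal between arrays. They are open to dye bias only as far as the balanced swaps leave any.

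SUMO3 also differed between the 2 controls. The log2 ratio of WT to CON was −0.87, −1.10, −0.56 and −1.01 on the 4 arrays for the brighter probe and −1.30, −1.31, −0.79 and −0.80 for the dimmer probe. The means were −0.89 ± 0.14 and −1.05 ± 0.36 (SD, n = 2), which are 1.85-fold and 2.07-fold lower in WT. With normexp and loess they were −0.68 and −0.46, so neither probe was then 2-fold apart. All 4 arrays gave the same sign on both probes. In that comparison 4.57% of all 26595 tested probes differed by 2-fold or more, and 1 of the 2 SUMO3 probes did.

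The 6 extracts can be put in order on each probe. On the brighter SUMO3 probe the normalized signals were 1114 and 843 in CON, 529 and 440 in WT, and 8.67 and 40.2 in KD1, replicate 1 first. On the dimmer probe they were 253 and 182 in CON, 101 and 112 in WT, and 4.71 and 6.18 in KD1. On both probes the order was CON above WT above KD1, with no overlap between cultures. The share of all probes whose extracts separate in this way was not worked out. A SENP3 probe (A_23_P164000) with far smaller differences also showed no overlap in any pair of cultures.

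**Figure D2:**
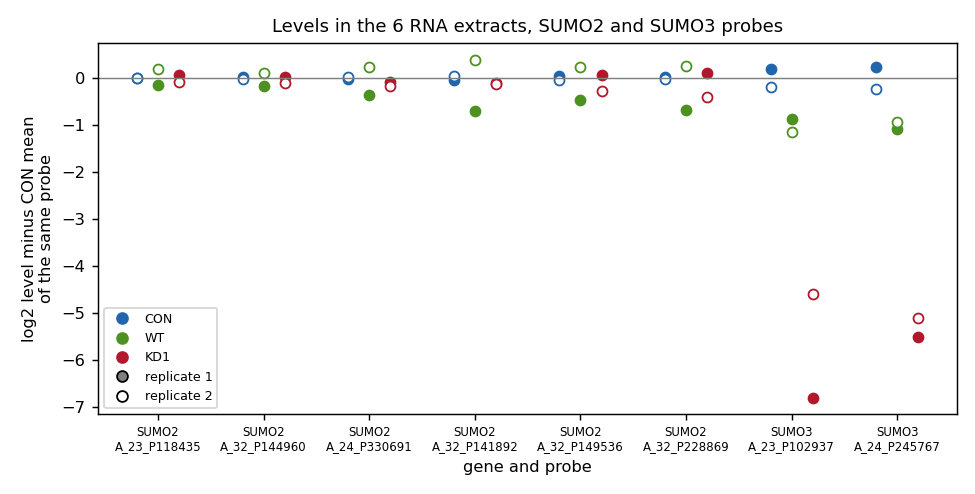
Normalized log2 level of each SUMO2 and SUMO3 probe in the 6 RNA extracts, minus the mean of the 2 CON extracts for the same probe (vertical axis), by probe (horizontal axis). Filled symbols are replicate 1 and open symbols replicate 2; the KD1 extracts stand apart from both controls on the SUMO3 probes and lie among them on most SUMO2 probes.

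SUMO2, the closest paralog, was bright in every culture. On its brightest probe (A_23_P118435) the normalized log2 levels were 16.06 and 15.90 in KD1, 15.99 and 15.99 in CON, and 15.83 and 16.19 in WT. The cultures overlapped there, and the log2 ratio of KD1 to CON was 0.05 in replicate 1 and −0.21 in replicate 2. On A_24_P330691 both KD1 extracts (14.98 and 14.92) lay below both CON extracts (15.06 and 15.09). The same held on A_32_P141892 (13.32 and 13.29 against 13.37 and 13.47), while KD1 and CON overlapped on the other SUMO2 probes. Over the 6 SUMO2 probes this ratio ran from −0.04 to 0.08 in replicate 1 and from −0.50 to −0.18 in replicate 2.

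Against WT the SUMO2 replicates went opposite ways. The 6 probes lay between 0.21 and 0.80 in replicate 1 and between −0.58 and −0.27 in replicate 2, and the sign differed between replicates on all 6. The same held for WT against CON, with −0.59 to −0.16 in replicate 1 and 0.05 to 0.27 in replicate 2. The 2 WT extracts thus differed in SUMO2, most on the probe A_32_P141892, with normalized signals of 6766 and 14407. The second WT extract is the one with EPCAM signal, and the part of that in the SUMO2 difference was not tested. SUMO3 did not follow it: its WT signals were 529 and 440, and 101 and 112, on the 2 probes.

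Within each array a scaling common to all probes cancels when 1 probe's ratio is taken from another's. A bias that depends on brightness or dye does not cancel, and SUMO2 was far brighter than SUMO3. The log2 ratio of the brighter SUMO3 probe minus that of the brightest SUMO2 probe was −7.72 and −4.15 for KD1 against CON in the 2 replicates, a mean of −5.93 ± 2.52 (SD, n = 2). Against WT it was −5.51 and −3.02, a mean of −4.27 ± 1.76. For WT against CON it was −0.82 and −0.92, a mean of −0.87 ± 0.07. The difference was below 0 on 4 of 4 arrays in each comparison, and with any of the other SUMO2 probes in its place the mean stayed between −5.93 and −5.80, between −4.43 and −4.25, and between −0.87 and −0.72. With the dimmer SUMO3 probe the mean for WT against CON was −1.03 ± 0.15, and those for KD1, which was not well above background with that probe on any array, were −5.38 ± 0.31 and −4.09 ± 1.03. The KD1 values of the dimmer probe, and of the brighter one in replicate 1, depend on the floor of the processed signal and give the direction rather than the size. SUMO3 transcript was thus lower relative to SUMO2 in KD1 on every array of these extracts.

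The activating enzyme showed little difference. SAE1, the smaller subunit, had log2 ratios of KD1 to CON of 0.13 and −0.14 on the brighter probe (A_24_P194000) and of −0.03 and −0.25 on the other (A_23_P16337). UBA2, the catalytic subunit, had 0.20 and −0.13. On these 3 probes the KD1 and CON extracts overlapped. Against WT the replicates of SAE1 had opposite signs on both probes, 0.20 and −0.32 on the brighter and 0.37 and −0.20 on the dimmer, and UBA2 had 0.04 and −0.37. WT against CON gave 0.21 and 0.37 for UBA2, a mean of 0.29 ± 0.12, and both WT extracts lay above both CON extracts. How many of all probes separate in this way was not worked out.

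PIAS1, a SUMO ligase of the PIAS family, was read by 2 probes. For KD1 against CON its 2 probes had log2 ratios of 0.01 and −0.04, and of 0.02 and −0.14. Against WT they had −0.40 and −0.23, a mean of −0.32 ± 0.12, and −0.33 and −0.36, a mean of −0.35 ± 0.02 (SD, n = 2). For WT against CON they had 0.43 and 0.31, and 0.20 and 0.38. WT thus had more PIAS1 signal than either clone in both replicates and on both probes, by 1.22-fold to 1.29-fold. The WT extracts did not overlap those of either clone. The share of all probes that separate in this way was not worked out. Even the SENP6 probe, which did not exceed background, separated KD1 from CON, so the lack of overlap carries little weight. Both clones carried a vector and were grown in puromycin, and WT neither, so these cannot be told apart as sources of a difference between WT and the clones.

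Among the proteases, SENP1, which both matures SUMO and removes it, had log2 ratios of KD1 to CON of 0.09 and 0.02 on its brighter probe. Its dimmer probe (A_24_P167412) had 0.44 and 0.18, and did not pass the signal filter in that comparison. SENP3, a nucleolar protease with a preference for SUMO2 and SUMO3, had 2 probes that disagreed. The probe on NM_015670 (A_23_P164000) had −0.16 and −0.13 for KD1 against CON, 0.12 and 0.20 against WT, and −0.33 and −0.31 for WT against CON. The probe on the mRNA AK000923 (A_24_P926972) had −0.58 and −0.18, −1.49 and −0.69, and 0.91 and 0.38. Their signs were opposite in both comparisons with WT, so no direction is given for SENP3 there.

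The AK000923 probe was the only one outside SUMO3 that reached a 2-fold mean in any comparison, at 2.13-fold lower in KD1 than in WT, where 4.76% of 24884 tested probes were 2-fold apart or more. Its normalized signals were 318 and 233 in KD1, 476 and 274 in CON, and 903 and 359 in WT, so the WT replicates were farther apart than the lower WT replicate was from KD1. SENP6, a protease that trims SUMO2 and SUMO3 chains, did not exceed background in any channel, and its probe was tested in no comparison. Its ratios, between −0.44 and 0.13, carry no information on its level.

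**Figure D3:**
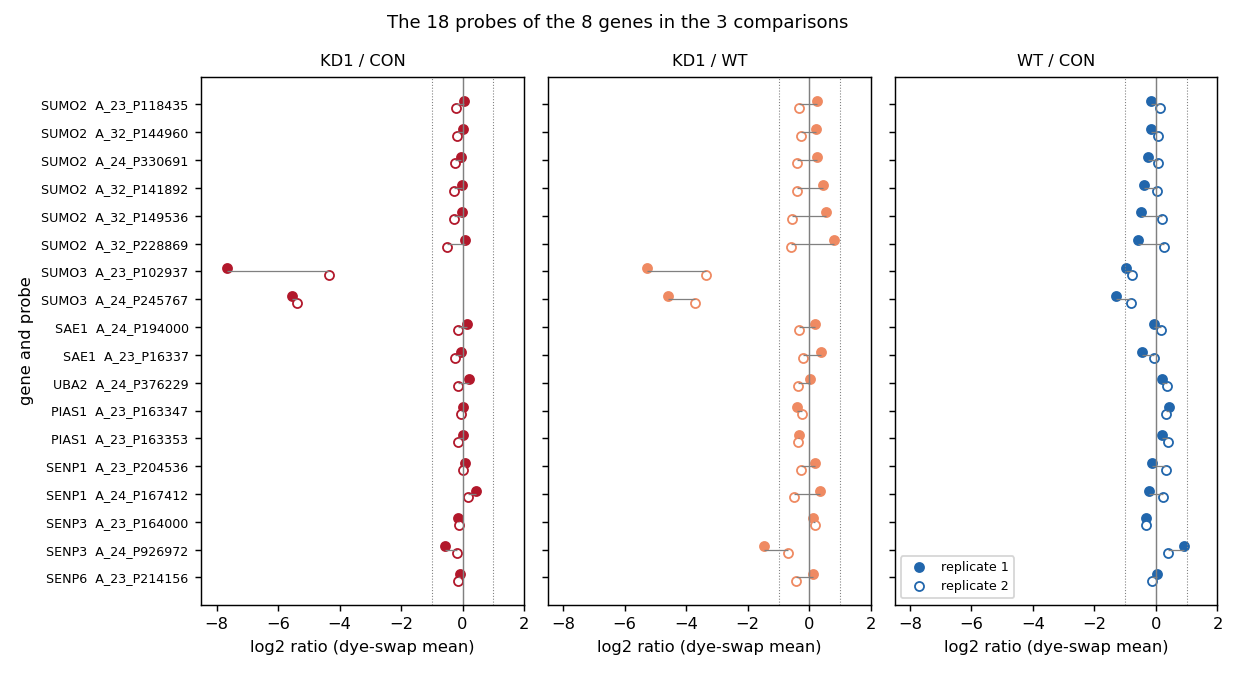
Log2 ratio (horizontal axis) of the 18 probes of the 8 genes (rows) in the 3 comparisons (panels). Each symbol is the mean of a dye-swap pair, filled for replicate 1 and open for replicate 2, and dotted lines mark a 2-fold difference; in both KD1 panels the pairs of SUMO3 are below −3, and the AK000923 probe of SENP3 is the only other one with a mean past a dotted line, in KD1 against WT.

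Taking the 8 genes together, 2 of the 18 probes, both of SUMO3, had a mean at least 2-fold lower in KD1 in both KD1 comparisons. Across the array 0.909% of the 21882 probes tested in both were that much lower. With normexp and loess only 1 of the 18 probes was, the brighter one of SUMO3. Of the other genes, 14 probes were tested in every comparison. Their median log2 ratio was −0.11 for KD1 against CON, −0.05 for KD1 against WT and −0.03 for WT against CON. Over all tested probes the medians were −0.01, 0.01 and −0.03. In KD1 against CON none of these 14 was 2-fold apart, beside 4.0% of all tested probes. Of all 18 probes, 16 passed the signal filter in KD1 against CON, and 17 did in each comparison with WT. The probes that failed were that of SENP6 in all 3 comparisons and the dimmer SENP1 probe in the first.

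The rest of the pathway was followed with 25 further genes, which include other ligases, other proteases, SUMO-targeted ubiquitin ligases and components of PML bodies. Of these, 24 had a probe (51 probes). No probe of the 24 passed the test in any comparison (limma, adjusted p under 0.05 over all tested probes), where 0.734% of all tested probes did in KD1 against CON, 0.43% in KD1 against WT and 0.493% in WT against CON. Fits without the replicate block, or on the replicate ratios directly, called 1 of these probes, a probe of DESI2. At an unadjusted p under 0.05, 6 of 43 tested probes passed in KD1 against CON, 3 of 48 in KD1 against WT and 9 of 50 in WT against CON, beside 17.0%, 16.9% and 17.1% of all tested probes. With each gene read from its brightest probe, 12 genes lay below 0 and 12 above in KD1 against CON, with a median log2 ratio of 0.02, and 11 lay below and 13 above in KD1 against WT, also with a median of 0.02. The lowest mean against CON was −0.46, for TOPORS, a ligase for SUMO and ubiquitin. The smallest adjusted p against CON was 0.055, for a probe of DESI2, a deSUMOylating isopeptidase that the files name PPPDE1. That probe (A_24_P922808), which was singled out after its values were seen, had log2 ratios of 1.17 and 1.81 against CON and 1.37 and 1.47 against WT, while the brightest DESI2 probe had 0.55 and 0.54, and 0.32 and 0.35.

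**Figure D4:**
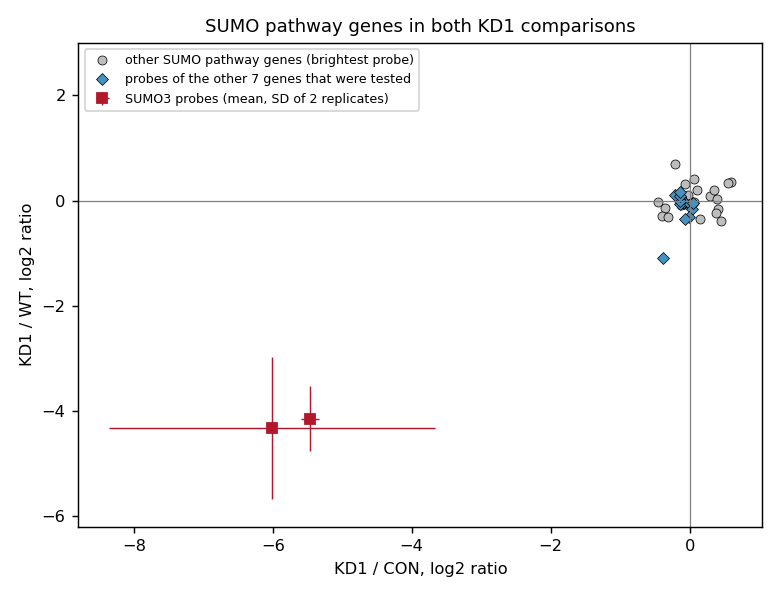
Mean log2 ratio of KD1 to CON (horizontal axis) against that of KD1 to WT (vertical axis) for 24 other SUMO pathway genes (grey circles), the tested probes of the 7 members other than SUMO3 (blue diamonds) and the 2 SUMO3 probes (red squares, with the SD of 2 replicates on each axis). The SUMO3 probes lie at −6.01 and −5.46 on the horizontal axis, and all grey circles lie within 1 unit of 0 on both axes; the 2 axes share the KD1 extracts.

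The genes with the pattern closest to that of SUMO3 were sought over 13739 other genes, each read from its brightest probe. Likeness was the root-mean-square difference from the brighter SUMO3 probe over the 6 replicate log2 ratios, which share extracts and are not independent. The closest were FBXO4, which encodes an F-box protein of ubiquitin ligases, with a difference of 1.12, MAGEH1 with 1.21, SPESP1 with 1.29, GPM6B with 1.42 and LAYN with 1.44. The dimmer SUMO3 probe itself differed from the brighter one by 1.02, against 1.12 to 1.44 for these genes. FBXO4 had log2 ratios of −5.08 and −4.72 for KD1 against CON, −4.59 and −3.51 against WT, and −0.54 and −0.88 for WT against CON. GPM6B differed from SUMO3 in the control comparison, with 0.57 and 0.63 for WT against CON. FBXO4 passed the background flag in 4 of its 8 KD1 channels, GPM6B in 2 and SPESP1 in 0, so those ratios too are set in part by the background. The 5 genes lie on chromosomes 5, X, 15, X and 11, and the same 5 were closest when the signal filter was dropped and 23869 genes were compared.

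SUMO3 lies near the end of the long arm of chromosome 21, and the 5 nearest genes with a probe on each side were read out. Of these 10 genes, 7 were tested in both KD1 comparisons, and the mean log2 ratios of KD1 to CON of these 7 ran from −1.82 to just below 0 with a median of −0.57. The nearest on each side were UBE2G2, a ubiquitin-conjugating enzyme gene whose probe is 36.2 kb away, and PTTG1IP, 43.9 kb away. UBE2G2 had −0.60 and −0.65 for KD1 against CON and −0.11 and −0.10 against WT. PTTG1IP, which encodes a protein that binds securin, had −0.28 and −0.87 against CON and −0.93 and −0.74 against WT. The lowest of the 7 was ITGB2, the integrin beta chain of leukocytes, at 80.0 kb, with −0.98 and −2.66 against CON and −1.18 and −1.96 against WT.

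Every one of these 7 was below 0 in both KD1 comparisons, and all means were closer to 0 than those of SUMO3 by 2 log2 units or more. That gap depends in part on the floor of the SUMO3 signal in KD1. In replicate 2, where the brighter SUMO3 probe was measured, it had −4.36 against CON and −3.37 against WT, beside −2.66 and −1.96 for ITGB2. The ratios of the neighbours with normexp and loess are not given here. In a window of 1 Mb on each side, chosen after these values were seen, 37 of 38 tested probes of other genes were below 0 in KD1 against CON and 35 of 38 against WT, beside 51.9% and 48.7% of all tested probes. Their median was −0.43 in replicate 1 and −0.62 in replicate 2 against CON, and −0.16 and −0.47 against WT. In WT against CON 21 of 38 were below 0. The lowest probe in the window, of the folate carrier gene SLC19A1, had a mean of −2.20 against either control. The part of this regional difference in the SUMO3 ratios was not tested.

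**Figure D5:**
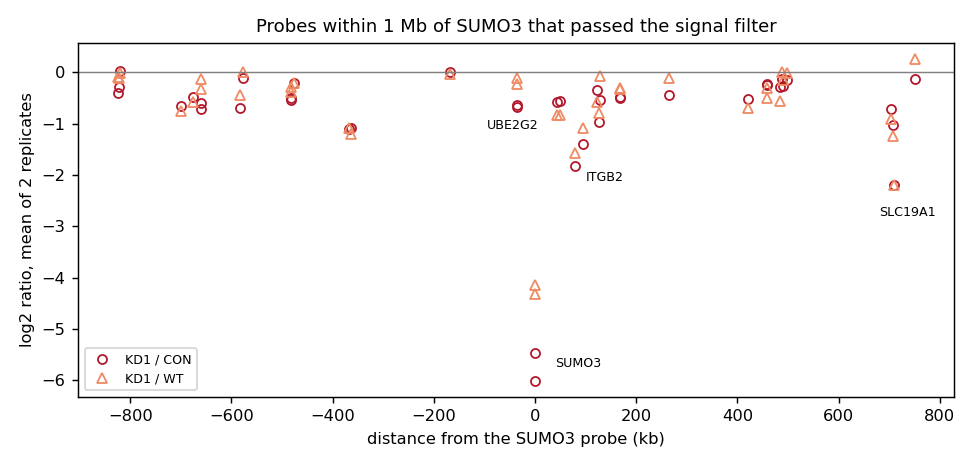
Mean log2 ratio of 2 replicates (vertical axis) for probes within 1 Mb of the brighter SUMO3 probe against their distance from it in kb (horizontal axis), for KD1 against CON (circles) and KD1 against WT (triangles). Nearly all symbols are below 0, and the SUMO3 probes at distance 0 are the lowest, at −6.01 and −5.46 against CON.

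Because the hairpin targets a transcription factor, the sequence before the SUMO3 start site is shown as well. The 250 bases that precede the start in RefSeq, at chr21:44818063-44818312 on the minus strand of GRCh38.p14, are 78.8% G or C and hold 42 CG pairs, which are in capitals.
SUMO3 promoter: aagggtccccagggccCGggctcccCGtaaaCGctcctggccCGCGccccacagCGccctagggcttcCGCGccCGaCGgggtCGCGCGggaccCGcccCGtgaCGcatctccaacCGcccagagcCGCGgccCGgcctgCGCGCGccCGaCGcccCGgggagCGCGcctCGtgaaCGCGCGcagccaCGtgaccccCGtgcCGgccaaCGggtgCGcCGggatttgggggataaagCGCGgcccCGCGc
The window of 300 bases that also takes in the first 50 transcribed bases was searched on both strands for the 4 words of the paired-domain site (GTTAC or GTTAT, and likewise GTTCC or GTTCT) and for the homeodomain word ATTA. It held none of them, while 76.9% of the 35116 RefSeq promoter windows of that length hold at least 1 of the 4 GTT words and 50.2% hold ATTA. The SUMO3 window is 78.3% G or C, against a median of 58.7% over those windows. Words with A and T are rarer by composition alone in such a window, and this was not corrected for. Of the 10 windows listed for 7 of the 8 genes, 8 hold a GTT word, 4 hold ATTA and 3 hold both, beside 41.9% of all windows that hold both. The SENP1 windows overlap each other, as do those of PIAS1, so the 10 are not separate promoters. A match is only a string of letters, no binding was measured here, and sites outside these windows were not searched.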

How the data were processed

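RNA of 3 Rh30 cultures was compared on 12 Agilent two-colour arrays (45015 features, 41000 gene probes). The deposited intensity values are the authors' Feature Extraction 10.5.1.1 processed signals, background-subtracted and lowess-normalized within each array, with small surrogate values where a spot is not above background. The deposited series table holds log2 ratios, turned to 1 direction by the authors and used as an alternative. Arrays carry no read depth, and their number limits the precision.

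From these, outlier-flagged spots were dropped, log2 red over green was turned to KD1 / CON, KD1 / WT and WT / CON, and dye-swap pairs were averaged, which gives n = 2 biological replicates. Levels of the 6 extracts come from Aquantile normalization in limma 3.58.1 (R 4.3.3). The signal filter kept a probe in a comparison if, on all 4 arrays, 1 channel or both lay above the 99th percentile of that array's 153 negative controls. For the test, limma was fitted to every tested probe, on 6 extract levels solved from the closed loop of 3 comparisons. The replicate number was a block, because extracts of 1 number share arrays. P-values were adjusted by Benjamini-Hochberg over all tested probes. They are given for non-member genes only, while the counts and shares of called probes cover members too. The deviations of same-numbered extracts correlated at 0.54 (KD1 and CON), −0.07 (KD1 and WT) and −0.02 (CON and WT). This fit was also run on simulated data, and the outcome is not reported here. The labels call the replicates biological and do not say how the flasks were separated, so errors measure the spread between these extracts.

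The 8 genes, the pathway list and the tests were chosen with earlier results of these data known. Named genes are the 8 members, listed genes that passed the test, a few listed genes whatever their values (some are not reported here), the 5 genes most like SUMO3, 5 neighbours on each side, PAX3, FOXO1 and the markers, and others are marked as chosen later. Of the 18 probes, 15 matched a RefSeq accession. The alternatives were another background correction, centring without lowess, the series table, single dye orientations or replicates, flagged spots kept, other fits, no signal filter and a 2-fold requirement.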

Additional observations from a re-analysis of the deposited data

How the results depend on the processing

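The 54 alternative values of SUMO3, alone or minus SUMO2, in the KD1 comparisons were all below 0, and 52 were at least 2-fold. The other 2 were those of the dimmer probe with normexp and loess. All 54 reuse the same arrays, some as parts of them, so they are not independent and their number is no measure of certainty. The series table and the outlier-flagged spots kept moved nothing. With normexp (offset 50) and loess the brighter SUMO3 probe had −2.19 (KD1 against CON), −1.62 (KD1 against WT) and −0.68 (WT against CON), the dimmer −0.998, −0.70 and −0.46, and the brighter minus SUMO2 −2.12, −1.58 and −0.64. With that setting 1 probe in place of 2 was 2-fold lower in both KD1 comparisons. Centring on the median gave −5.67 for the dimmer probe (KD1 against CON) and −0.69 for SUMO3 minus SUMO2 (WT against CON). Forward and swapped dyes gave −5.24 and −5.68 for the dimmer probe (KD1 against CON), −0.72 and −1.06 for the brighter (WT against CON), and −0.55 and −1.19 for SUMO3 minus SUMO2 (WT against CON). Separate-channel levels without the replicate block gave −5.31 for the dimmer probe (KD1 against CON) and −1.03 for SUMO3 minus SUMO2 (WT against CON).

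Leaving out 1 replicate moved the brighter probe between −7.67 and −4.36, −5.28 and −3.37, and −0.98 and −0.79 in KD1 against CON, KD1 against WT and WT against CON. The dimmer moved between −5.55 and −5.37, −4.58 and −3.70, and −1.30 and −0.80, and SUMO3 minus SUMO2 between −7.72 and −4.15, −5.51 and −3.02, and −0.92 and −0.82. The count of 2 probes did not move. With 1 replicate the fits have no residual degrees of freedom, so no call could be made.

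Probes called were 161, 107 and 131 in KD1 against CON, KD1 against WT and WT against CON. They were 0, 1 and 0 with normexp and loess (3531, 4231 and 4738 at an unadjusted p under 0.05), 89, 45 and 75 with median centring, 381 and 233 in the first and last with replicate ratios fitted directly, and 82 in the last without the signal filter. The split of lower against higher calls in KD1 against WT, 88 to 19, was 43 to 2 with centring. Without the replicate block 202, 126 and 114 were called, and 1 probe of the pathway list, that of DESI2 (A_24_P922808), was called in both KD1 comparisons, as it was with direct ratios against CON (1 probe). The cause of the shifts in these counts was not tested.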
